A study of Rattus norvegicus with 6 samples.

Results

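Expression of 10 transcription factor genes linked to pancreatic beta cell identity was followed in INS-1, an insulin-secreting line derived from a rat insulinoma. Some of them also act in other islet cells. The 10 genes are Pdx1, Mafa, Nkx6-1, Nkx2-2, Neurod1, Isl1, Pax6, Mnx1, Foxa2 and Rfx6, taken by gene symbol from a table of transcript counts. These 10 genes were held in 13 of 35604 named transcript rows, or 10 of 21553 genes. RNA sequencing covered 3 samples of the genotype wild type (INS-MOCK) and 3 of the genotype SMA overexpression (INS-SMA), which expressed the smooth muscle actin gene from a lentivirus. All 6 were INS-1 cells of passages 7 to 15. The labels do not say whether INS-MOCK cells received a virus, nor whether either group was 1 clone. The samples of a group are described as biological replicates without saying what separates them. P-values therefore set the difference between groups against the spread among these samples, whatever its source. The comparison asks which genes differ when INS-1 cells overexpress α-SMA.

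These proteins form a network that makes a beta cell and keeps it one. Pdx1, Nkx6-1, Mnx1, Nkx2-2, Rfx6 and Foxa2 act from the pancreatic bud or the endocrine progenitor onwards, and most are needed again in the adult cell. Neurod1, Mafa, Pdx1, Isl1 and Pax6 bind the insulin promoter, where they act together, and several of them bind each other's control regions. Loss of such factors is a known mark of beta cells that lose their specialised state.

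The libraries held 24719503 to 39608609 counts, 15851326 to 25075476 of them in the 13363 genes that passed a filter on low counts. Levels are given as CPM, counts scaled to a common library size after TMM, a normalisation to the bulk of genes. A row for human ACTA2, the gene of α-SMA, had 103 to 167 counts in INS-MOCK and 941093 to 1141322 in INS-SMA. Libraries of INS-MOCK correlated with each other at 0.936 to 0.939 over tested genes (Pearson, log2 CPM), those of INS-SMA at 0.920 to 0.927, and libraries of different groups at 0.822 to 0.846. Several library measures moved with the group. Rows with no gene name took 32.8% ± 0.167 of counts in INS-MOCK and 36.2% ± 0.477 in INS-SMA (SD, n = 3 each). The share of mitochondrial genes was 7.84% ± 0.465 and 3.67% ± 0.155 of named counts. For both of these measures the exact two-sided permutation p was 0.1, the smallest that 3 against 3 can give. The TMM factors were 0.964 to 0.976 in INS-MOCK and 1.02 to 1.05 in INS-SMA. The share of genes at 0 counts was 3.55% to 3.84% in INS-MOCK and 0.958% to 1.63% in INS-SMA. Their part in the results was not tested. In RNA from whole cultures, fewer cells of a type and less RNA per cell cannot be told apart.

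Most of the 10 genes were lower in INS-SMA. Of the 9 that passed the filter, 6 fell at an adjusted p of 0.05 (Pdx1, Nkx6-1, Neurod1, Isl1, Pax6 and Mnx1), where 27.0% of all tested genes fell. None rose, where 28.1% of all tested genes did. That count was 0 at an unadjusted p under 0.05 as well, and 0 with DESeq2, where 4371 of 13363 genes rose. Nkx2-2, Mafa and Foxa2 did not pass that threshold. Rfx6 was removed by the filter on low counts and was not tested. It had 420 counts in INS-MOCK replicate 1 and at most 6 in any other library. In 7 of the 9 tested genes all INS-SMA libraries lay below all INS-MOCK libraries, as they did in 31.9% of tested genes. The median log2 fold change of these 9 was -1.37, against 0.03 for all tested genes.

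**Figure D1:**
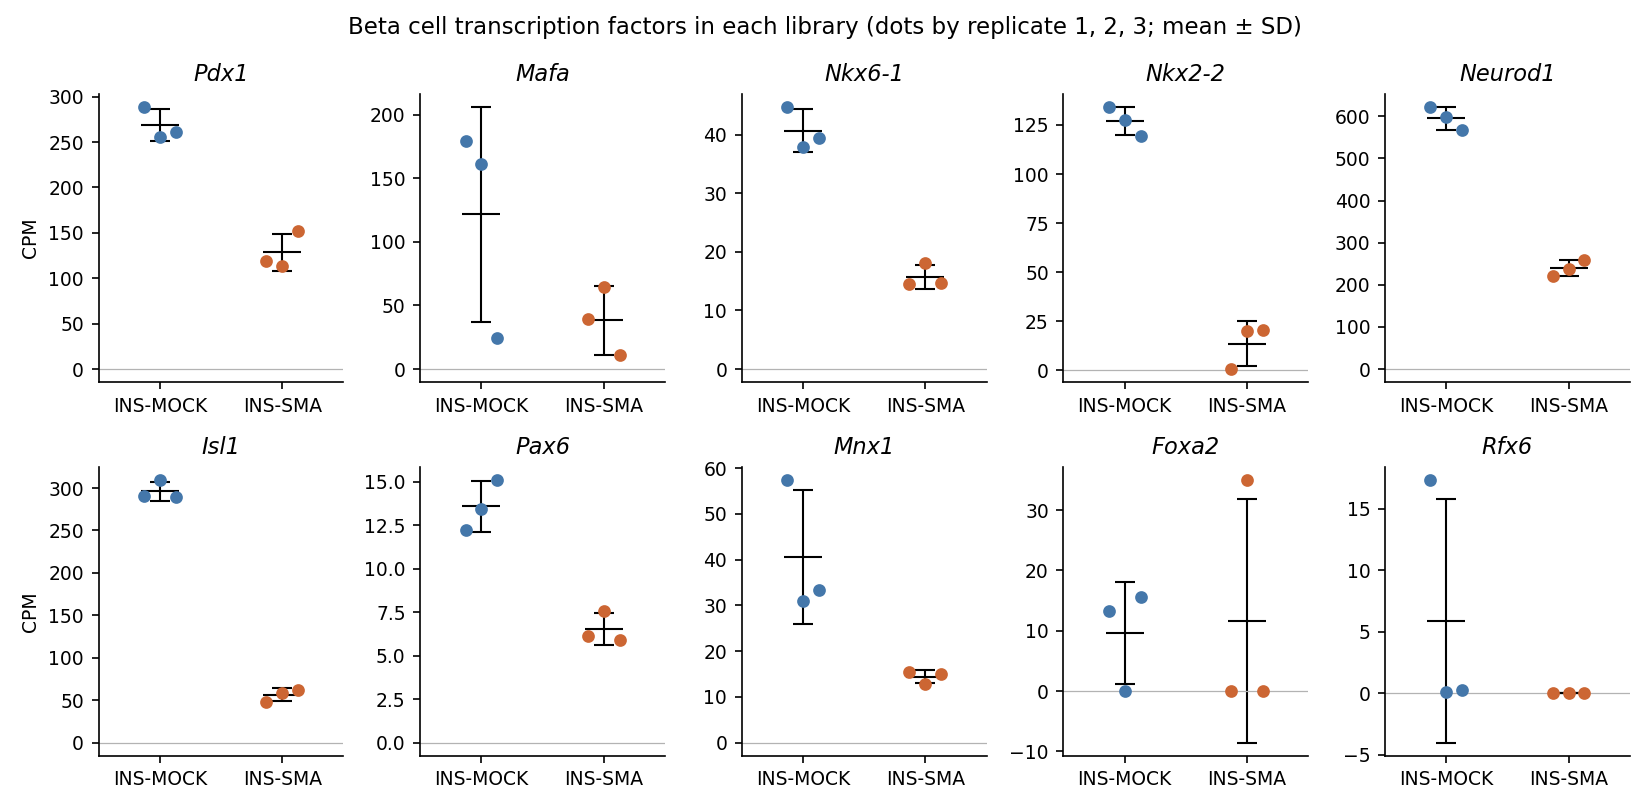
Normalised counts (CPM, linear axis scaled for each gene) of the 10 transcription factor genes in the 3 INS-MOCK and 3 INS-SMA libraries, with mean and SD as bars. Pdx1, Nkx6-1, Nkx2-2, Neurod1, Isl1, Pax6 and Mnx1 show no overlap between groups, Mafa and Foxa2 overlap, and Rfx6 is above 1 CPM in 1 library.

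Pdx1 is the homeodomain factor required for the pancreas to form, and in the adult cell it drives insulin transcription. It was measured in 1 row (ENSRNOG00000046458, chromosome 12, 9496044 to 9501213, minus strand, in the deposited coordinates, for which rn6 is the only rat build named). Its level was 289, 256 and 261 CPM in the INS-MOCK libraries and 119, 114 and 152 CPM in the INS-SMA libraries. The groups were well apart, and INS-SMA kept 47.8% of the INS-MOCK mean. That is a log2 fold change of -1.06 with an SE of 0.13 (edgeR adjusted p = 9.07e-04).

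Nkx6-1 encodes a homeodomain repressor that holds off other endocrine fates and is needed for insulin secretion. In its row (ENSRNOG00000002149, chromosome 14, 9555264 to 9562189), it was at 44.8, 38.0 and 39.4 CPM in INS-MOCK and 14.5, 18.2 and 14.7 CPM in INS-SMA. The libraries of each group were close to each other. On the log2 scale the change was -1.37 (SE 0.13, adjusted p = 3.74e-04 by edgeR), and the mean in INS-SMA was 38.7% of that in INS-MOCK.

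Mnx1, a homeodomain factor of early pancreas and of motor neurons, had a less even control group. It stood at 57.4, 30.8 and 33.3 CPM in INS-MOCK and at 15.3, 12.8 and 15.0 CPM in INS-SMA (ENSRNOG00000046959, chromosome 4, 2376958 to 2381271). INS-MOCK replicate 1 was the high library, yet the lowest INS-MOCK value was still above all 3 INS-SMA values. The resulting log2 fold change of -1.50 (SE 0.27, adjusted p = 0.00504 by edgeR) was -1.15 without that library.

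Isl1 encodes a LIM homeodomain protein that islet cells need to mature and that binds the insulin promoter beside Neurod1. Among the genes of this group that passed the test it had the lowest fold change. It went from 290.2, 309 and 289.6 CPM in INS-MOCK to 47.8, 58.3 and 62.5 CPM in INS-SMA (ENSRNOG00000012556, chromosome 2, 48487736 to 48501436), which left 19.0% of the mean. The log2 fold change of -2.40 (SE 0.11, adjusted p = 2.61e-05 by edgeR) was below that of all but 2.19% of tested genes.

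Neurod1 is a basic helix-loop-helix activator that pairs with an E protein such as Tcf3 and binds E-boxes, DNA sites with the letters CANNTG. Its level was 622, 598 and 568 CPM in INS-MOCK and 221, 239 and 258 CPM in INS-SMA (ENSRNOG00000005609, chromosome 3, 66414308 to 66417741). The spread in each group was small beside the gap between them. Neurod1 fell by 1.32 on the log2 scale (SE 0.07, adjusted p = 4.16e-05 by edgeR). The deposited coordinates place 1 other named gene across Neurod1 on the same strand, AABR07052613.1, which had a mean of 1.10 CPM in INS-MOCK.

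Neurod1 was the only one of the 10 genes with a second abundant transcript row, and both rows fell. Row ENSRNOT00000007662 held 77.1%, 75.9% and 79.7% of the gene's counts in INS-MOCK and 86.6%, 90.3% and 90.7% in INS-SMA. Row ENSRNOT00000086507 held the rest, 22.4% ± 1.95 in INS-MOCK and 10.8% ± 2.21 in INS-SMA (SD, n = 3). The shares did not overlap between groups, but the difference of the shares was not tested across genes. In a fit of all named rows, the larger row changed by -1.14 on the log2 scale (SE 0.09, adjusted p = 7.28e-04 by edgeR) and the smaller one by -2.41 (SE 0.15, adjusted p = 3.71e-04). How the reads of 1 locus were divided among its rows is not stated.

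Pax6, a paired-domain and homeodomain factor of all islet hormone cells, was spread over 3 rows (ENSRNOG00000004410, chromosome 3, 95707386 to 95728624). Summed, it was at 12.2, 13.4 and 15.1 CPM in INS-MOCK and at 6.13, 7.57 and 5.91 CPM in INS-SMA. Every INS-SMA library lay below every INS-MOCK library. Pax6 had a log2 fold change of -1.05 with an SE of 0.17 (edgeR adjusted p = 0.00288), and 48.2% of the mean was left. Row ENSRNOT00000006302 carried 85.5% ± 1.13 of its counts in INS-MOCK and 80.6% ± 1.12 in INS-SMA.

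Tested as a single row, the main row of Pax6 fell by 1.16 on the log2 scale (edgeR adjusted p = 0.0162). That call was lost without INS-MOCK replicate 2, INS-MOCK replicate 3, INS-SMA replicate 1 or INS-SMA replicate 3, where the adjusted p was 0.0506 to 0.0544. Row ENSRNOT00000089525 stood at -0.86 (adjusted p = 0.0584) and row ENSRNOT00000005882, with 6 to 13 counts a library, at -0.08 (adjusted p = 0.92). In all, 7 of the 12 rows that could be tested fell, where 14.6% of all tested rows did.

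**Figure D2:**
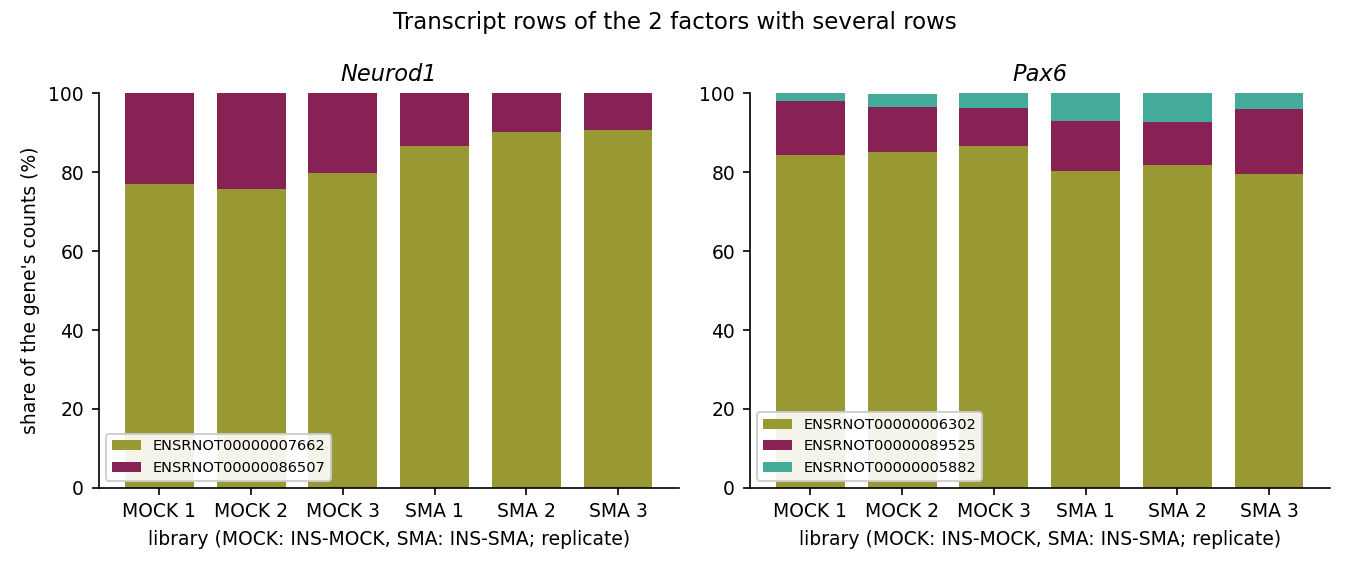
Share of the gene's counts (%, stacked to 100) in each transcript row of Neurod1 and Pax6, for each of the 6 libraries. The smaller Neurod1 row takes 20.3% to 24.1% in INS-MOCK and 9.33% to 13.4% in INS-SMA, and the main Pax6 row takes 84.5% to 86.7% in INS-MOCK and 79.6% to 81.8% in INS-SMA.

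Nkx2-2 encodes a homeodomain factor that endocrine precursors need to become beta cells. It was at 134, 127 and 119.6 CPM in INS-MOCK, and at 0.601, 19.8 and 20.4 CPM in INS-SMA (ENSRNOG00000012728, chromosome 3, 141408798 to 141411170). All INS-SMA values were low, and that of INS-SMA replicate 1 was far below the rest, with 10 counts against 432 and 525. The log2 fold change was -3.22 (SE 1.09), and the edgeR adjusted p of 0.0503 just missed the threshold. Without INS-SMA replicate 1 it was -2.66 with an adjusted p of 7.74e-05, and all alternatives gave adjusted p between 7.74e-05 and 0.101. The coefficient of variation was 5.75% in INS-MOCK and 82.8% in INS-SMA, the latter above that of 93.0% of tested genes.

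Mafa encodes a basic leucine zipper activator of the insulin gene that marks mature rodent beta cells. Its single row covers 1086 bases (ENSRNOG00000007668, chromosome 7, 116780681 to 116781766), the shortest span of the 10 genes. The values were 179, 161 and 24.3 CPM in INS-MOCK and 39.2, 64.9 and 10.9 CPM in INS-SMA. INS-MOCK replicate 3 lay below 2 of the 3 INS-SMA libraries, so the groups overlapped. The estimate of -1.67 on the log2 scale had an SE of 0.93 (edgeR adjusted p = 0.19), and with 1 library left out it lay between -2.29 and -1.22 (adjusted p = 0.0706 to 0.378). Within groups Mafa varied more than 89.1% of tested genes did in INS-MOCK, and more than 90.8% did in INS-SMA.

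Foxa2, a forkhead factor that opens chromatin in the early pancreas, was listed at 323, 0 and 364 counts in INS-MOCK and at 0, 762 and 0 counts in INS-SMA (ENSRNOG00000013133, chromosome 3, 142383278 to 142387481). Each group thus held at least 1 library at 0 and at least 1 above 10 CPM. A pattern of that kind in both groups occurred in 26 of 13363 tested genes (0.195%). The log2 fold change of 0.28 had an SE of 2.64 (edgeR adjusted p = 0.94), so no difference was detectable in either direction. Leaving out INS-MOCK replicate 2 gave -0.32, and leaving out INS-SMA replicate 2 gave -10.76.

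Rfx6, a winged-helix factor of endocrine progenitors and adult beta cells, had 420, 2 and 6 counts in INS-MOCK and 0 in each INS-SMA library (ENSRNOG00000027949, chromosome 20, 32717564 to 32764035). Nearly all of its counts were in INS-MOCK replicate 1, at 17.3 CPM. A floor of 3 counts per library corresponds to 0.117 to 0.180 CPM. With no filter on low counts its edgeR adjusted p was 0.12. Whether rows without a gene name hold reads of Rfx6, or of Foxa2, Mafa and Nkx2-2 in the libraries where those were low or at 0, was not tested.

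**Figure D3:**
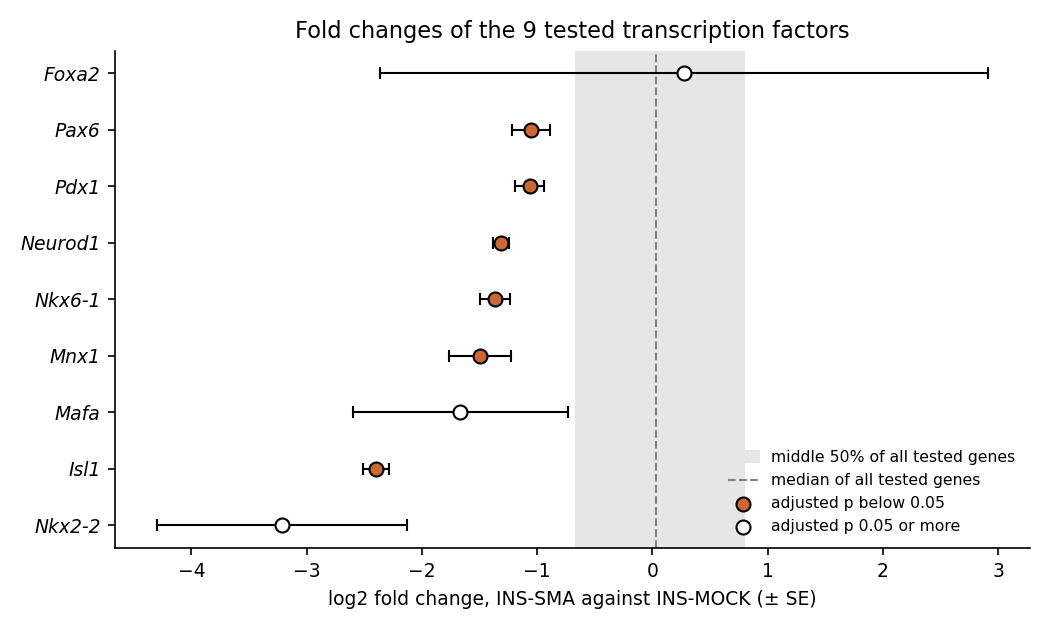
Log2 fold change of INS-SMA against INS-MOCK (x axis, ± SE) for the 9 tested transcription factor genes, filled where the edgeR adjusted p was below 0.05, with the middle 50% of all tested genes in grey. The 6 filled points lie between -2.40 and -1.05, left of the grey band, while Mafa, Nkx2-2 and Foxa2 have wide errors.

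The genes were ordered by the share of the INS-MOCK mean left in INS-SMA. Foxa2 (121%) and Rfx6 (0%), each at 0 counts in several libraries, were left out. Nkx2-2 (10.7%) came first, followed by Isl1 (19.0%), Mafa (31.5%), Mnx1 (35.5%), Nkx6-1 (38.7%), Neurod1 (40.1%), Pdx1 (47.8%) and Pax6 (48.2%). By log2 fold change ± SE, Mnx1, Nkx6-1 and Neurod1 overlapped with each other, as did Pdx1 and Pax6. The interval of Mafa reached from that of Isl1 to that of Pax6, and that of Nkx2-2 held that of Isl1. Differences between the fold changes of single genes were not tested.

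The promoters of Pdx1 and Neurod1 are shown for 2 factors that fell and that themselves bind insulin promoters, and those of Ins1 and Ins2 because they are the best known shared targets of these factors. Each sequence is the stretch of 250 bases before the RefSeq gene start in build GRCr8, on the gene's own strand, 5′ to 3′. Capitals mark TAAT or its complement ATTA, the core of many homeodomain sites, and CANNTG, the E-box. Overlapping copies were counted separately. The Pdx1 stretch lies at chr12:12799157-12799406 (minus strand) and that of Neurod1 at chr3:84770455-84770704 (minus strand). The Ins1 stretch lies at chr1:261185869-261186118 (plus strand) and that of Ins2 at chr1:207273806-207274055 (minus strand).
Pdx1: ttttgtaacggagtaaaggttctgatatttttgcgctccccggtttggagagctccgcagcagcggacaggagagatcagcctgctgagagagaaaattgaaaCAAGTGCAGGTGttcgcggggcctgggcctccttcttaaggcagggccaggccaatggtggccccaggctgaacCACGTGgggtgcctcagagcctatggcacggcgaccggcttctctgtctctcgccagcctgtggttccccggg
Neurod1: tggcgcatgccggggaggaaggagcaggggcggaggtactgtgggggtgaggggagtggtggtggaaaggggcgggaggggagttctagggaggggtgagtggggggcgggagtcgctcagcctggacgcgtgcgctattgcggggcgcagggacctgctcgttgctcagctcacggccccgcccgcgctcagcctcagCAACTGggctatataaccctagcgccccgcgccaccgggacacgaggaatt
Ins1: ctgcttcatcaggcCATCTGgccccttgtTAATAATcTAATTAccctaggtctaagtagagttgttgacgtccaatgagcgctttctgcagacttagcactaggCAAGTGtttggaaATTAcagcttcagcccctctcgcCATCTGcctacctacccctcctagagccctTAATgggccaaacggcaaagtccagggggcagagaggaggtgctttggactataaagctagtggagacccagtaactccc
Ins2: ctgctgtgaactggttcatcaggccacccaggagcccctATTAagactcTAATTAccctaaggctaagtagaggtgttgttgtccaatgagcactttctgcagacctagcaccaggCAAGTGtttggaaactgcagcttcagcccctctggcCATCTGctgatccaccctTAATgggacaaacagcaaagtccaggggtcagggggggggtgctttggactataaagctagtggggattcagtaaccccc

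The Pdx1 stretch held 3 E-boxes and no TAAT, and that of Neurod1 held 1 E-box and no TAAT. At least 1 E-box was present in 65.5% of 33469 promoters of this length and at least 3 in 11.5%. Ins1 held 6 copies of TAAT or ATTA and 3 E-boxes, and Ins2 held 4 and 2. At least 4 copies of TAAT or ATTA were found in 10.8% of promoters and at least 6 in 3.34%. Of the 10 transcription factor genes, 8 had a sequence in the RefSeq table, 5 of them with TAAT or ATTA and 4 with an E-box, where 57.0% and 65.5% of all promoters held at least 1. These are matches of letters, not measured binding sites.

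Many genes that these factors serve in the beta cell fell as well. Of 42 tested target genes (of 49 listed), 24 fell and 2 rose, beside 27.0% and 28.1% of all genes, and the median log2 fold change was -1.44. Ins1 stood at 21966, 23701 and 23213 CPM in INS-MOCK and 1306, 1546 and 1664 CPM in INS-SMA. Ins2 stood at 3314, 3623 and 4228 CPM against 166, 164.5 and 239.6 CPM. The change was -3.93 on the log2 scale for Ins1 (SE 0.11, adjusted p = 6.86e-06 by edgeR) and -4.29 for Ins2 (SE 0.20, adjusted p = 3.07e-05). As near-identical copies, Ins1 and Ins2 may have exchanged reads.

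Other targets with small adjusted p were Npy, a neuropeptide gene (log2 fold change -2.84), the granule zinc transporter gene Slc30a8 (-2.11), the proinsulin convertase gene Pcsk2 (-2.86) and Hadh, a mitochondrial enzyme that restrains insulin release (-2.26). The 2 that rose were Syt4, a synaptotagmin (0.61), and Tmem27, also known as collectrin (1.25). With DESeq2, 5 of the 42 rose, where 4371 of 13363 genes did. The list was chosen with results of these data known, so its direction is not independent evidence.

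Other transcription factors of endocrine cells moved both ways. Of 27 tested (of 41 listed), 2 fell and 9 rose, with a median of 0.81, where 27.0% of all tested genes fell and 28.1% rose. In the main setting, the count that rose was near that background. Among those that fell was St18, at 534, 532 and 503 CPM in INS-MOCK and 244, 269 and 268 CPM in INS-SMA. The log2 fold change of St18 was -1.01, and -2.03 in its most abundant row.

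Nr1d1, a nuclear receptor of the circadian clock, rose by 5.13 and Nr4a1, an immediate early nuclear receptor, by 1.21 on the log2 scale. Nr1d1 overlaps Thra on the opposite strand, and without a stated strand setting the reads of both cannot be told apart. The count of 9 that rose was 4 of 28 when INS-MOCK replicate 1 was left out, where 3672 of 13906 tested genes rose. It was 5 of 29 without INS-SMA replicate 1, where 3528 of 13779 rose. Without INS-SMA replicate 2 it was also 5 of 29, where 3458 of 13787 rose. With DESeq2, 4 of 27 fell, where 3929 of 13363 genes did.

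Changes in both directions were also found among partner proteins and cofactors. Of 32 tested (of 41 listed), 12 rose and 6 fell, with a median of 0.49, beside 28.1% and 27.0% of all tested genes. Whether these counts differ from that background was not tested. Tcf3, the E protein partner of Neurod1, fell from 80.2, 83.5 and 82.8 CPM to 55.0, 54.6 and 53.6 CPM, which is -0.59 on the log2 scale (SE 0.04, adjusted p = 1.28e-04 by edgeR). Id3 and Id4, which bind E proteins and keep them from DNA, rose by 1.45 and 2.06 on the log2 scale. Id3 went from 42.0, 38.8 and 39.3 CPM to 107.9, 103 and 116 CPM.

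Ldb1, the adaptor that LIM homeodomain proteins such as Isl1 need to form complexes, rose from 73.8, 89.4 and 80.1 CPM to 367.1, 371 and 367.2 CPM, or by 2.18 on the log2 scale (SE 0.08, adjusted p = 1.31e-05 by edgeR). The LIM-only genes Lmo4 (2.42) and Lmo2 (2.33), whose proteins also bind Ldb1, rose too. The deacetylase gene Hdac1 fell by 1.23 on the log2 scale and the corepressor gene Tle3 rose by 1.17. In its most abundant row alone, Tle3 stood at 0.66 (adjusted p = 0.26) and Lmo2 at 3.96 (adjusted p = 0.29). Other listed partners differed: Ssbp3 changed by -0.52 on the log2 scale (edgeR adjusted p = 0.0187), and Tcf12 did not pass (0.90, adjusted p = 0.38). Tcf3, Id4, Lmo4, Lmo2, Ssbp3, Tcf12, Syt4 and Tmem27 were named after their values were seen.

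**Figure D4:**
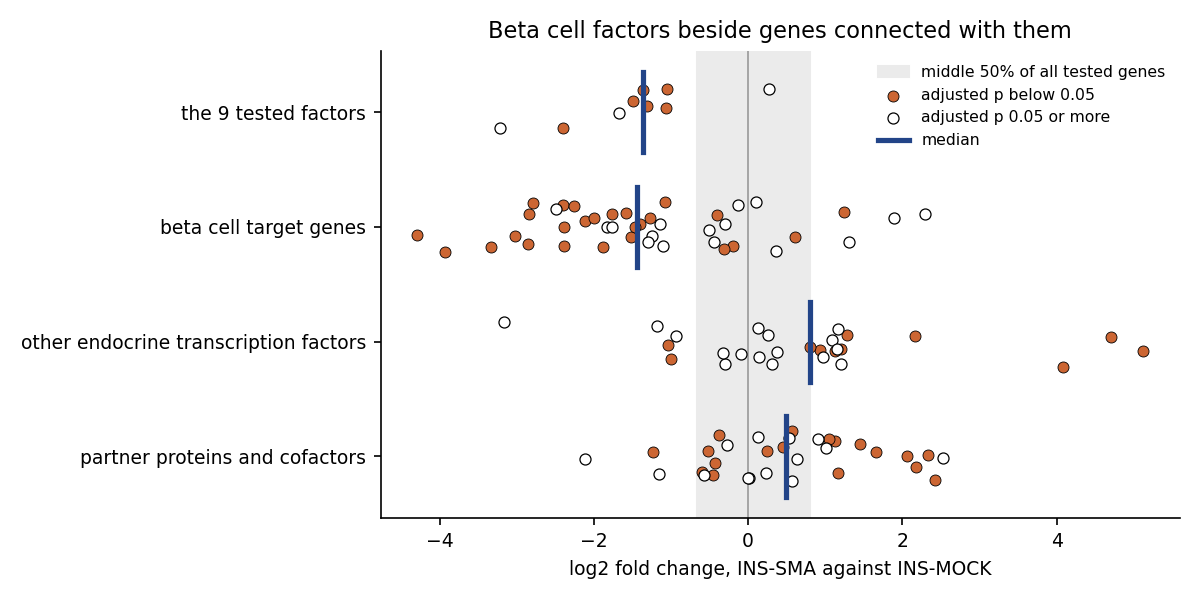
Log2 fold change (x axis) of each tested gene in 4 sets, one dot per gene, filled where the edgeR adjusted p was below 0.05, with the set's median as a bar and the middle 50% of all tested genes in grey. The medians are -1.37 for the 9 transcription factors, -1.44 for target genes, 0.81 for other endocrine factors and 0.49 for partners.

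All 7 defining markers of the beta cell on the list were detected and tested, with a summed level of 32034 to 35081 CPM in INS-MOCK and 2786 to 3798 CPM in INS-SMA. Of these 7, 4 fell, where 27.0% of all tested genes did. Alpha cell markers were lower too, at 2621 to 2770 and 698 to 782 CPM summed over 6 of 10 listed genes, and 3 of 4 tested fell. Acinar markers summed to 55.0 to 65.8 CPM and 22.8 to 26.5 CPM over 5 of 10 listed genes. Duct markers summed to 17.3 to 28.3 and 20.2 to 22.2 CPM over 6 of 7 listed genes. The duct sums hid changes in both directions, since Krt7 and Sox9 fell while Muc1 and Cftr rose, Cftr from 0 counts in each INS-MOCK library to 143, 202 and 182 in INS-SMA. Of 3 tested acinar markers 1 fell, Bhlha15. It made up most of the acinar sum, at 51.8 to 64.3 CPM in INS-MOCK and 20.1 to 22.5 CPM in INS-SMA. Ctrb1 was higher in every INS-SMA library but did not pass (log2 fold change 1.18, edgeR adjusted p = 0.0716), nor did Rbpjl (-0.33). Fibroblast and smooth muscle markers summed to at most 21.1 and 17.8 CPM, immune markers to 0.743 to 2.20 and 2.52 to 3.31 CPM, and endothelial markers to 1.45 to 2.82 and 1.26 to 2.11 CPM. Of 4 tested fibroblast and smooth muscle markers, Col3a1 and Myh11 rose and Pdgfra fell. Ptprc, 1 of 3 tested immune markers, rose from 0 counts in each INS-MOCK library to 31, 34 and 29 in INS-SMA. These markers were named after their values were seen. Of 4 listed delta cell markers, only Hhex and Ghsr were among the named genes, and these stayed below 0.69 CPM. Sst and Rbp4 were not among them, so their levels are unknown. No marker of PP or epsilon cells was among the named genes. What part these differences had in the results was not tested.

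Across the 6 libraries, the log2 CPM of Pdx1 ran closest to that of Neurod1 (Pearson r = 0.983) and Isl1 (0.974) among the other factors, with Mnx1 at 0.944, Nkx6-1 at 0.940, Pax6 at 0.888, Nkx2-2 at 0.825, Mafa at 0.426 and Foxa2 at 0.181. Outside these factors, the 5 genes with the highest r, of 9347 with a mean of at least 5 CPM, were Ctnnbip1 (0.999), Fam136a (0.999), LOC100910207 (0.999), Troap (0.998) and Ndufa3 (0.998). Ctnnbip1, an inhibitor of beta-catenin, was at 39.6, 36.2 and 37.6 CPM in INS-MOCK and 18.8, 18.5 and 23.4 CPM in INS-SMA. The 6 points share 2 groups and their library sizes, and 2727 genes had an r above 0.9, so these values describe the libraries only.

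The fold changes of the 6 genes that fell held their direction and stayed past the threshold in each of 14 alternatives, 6 of which left out 1 library. Over these, the log2 fold change ranged from -1.20 to -0.97 for Pdx1, from -1.48 to -1.28 for Nkx6-1, from -1.37 to -1.05 for Neurod1 and from -2.48 to -2.29 for Isl1. For Pax6 it ranged from -1.17 to -0.96 and for Mnx1 from -1.66 to -1.15. Of the 9 tested (10 with no low-count filter), 6 or 7 fell in each alternative and 0 rose. The share of all tested genes was lowest with no low-count filter, where 3402 of 21553 fell and 3939 rose. It was highest with DESeq2, where 3929 of 13363 fell and 4371 rose.

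**Figure D5:**
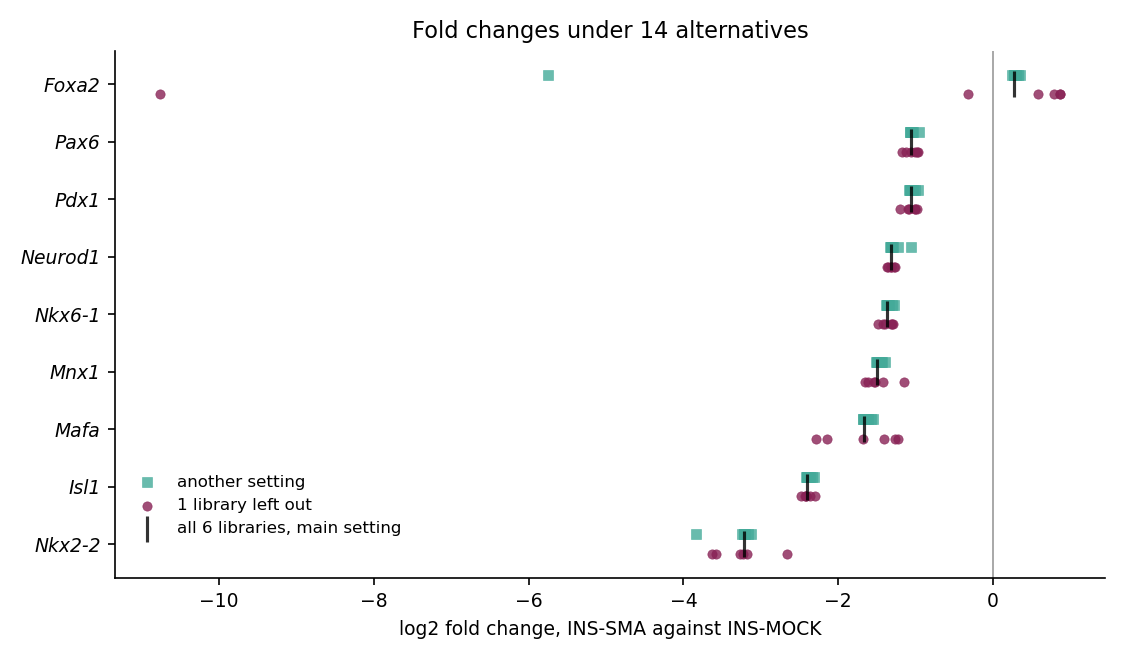
Log2 fold change of INS-SMA against INS-MOCK (x axis) of the 9 tested transcription factor genes, with all 6 libraries (bar), with 1 library left out (circles) and under other settings (squares). All values lie below 0 for 8 genes, and Foxa2 ranges from -10.76 to 0.86.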

How the data were processed

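RNA of 6 INS-1 samples was sequenced on a NovaSeq platform, per the labels' protocols. The authors deposited a single table of raw counts, unpooled, in which each row is a transcript. Per the submitters' processing notes, the tools included HISAT, HISAT2 and DESeq2 and the builds rn6 and hg19. Neither the counter and its strand setting nor the annotation is named there. The deposited coordinates name no build, and rn6 is the only rat build in those notes.

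The 66301 rows without a gene, which held 32.7% to 36.7% of a library's counts, entered neither library sizes nor tests. Rows of the same gene were added up, filtered with filterByExpr and normalised by TMM. Groups were compared by edgeR 4.0.16 (glmQLFit and glmQLFTest, R 4.3.3) with no covariate. P-values were adjusted by Benjamini-Hochberg over all 13363 genes. The same was done over 23402 rows. The standard error is the size of the log2 fold change divided by the square root of F. The fits were tested on simulated data, where the fit of rows recovered a smaller share of the changed features than the fit of genes. Between replicates, chi-square was 45.0 to 58.6 times its degrees of freedom. Floors of 3 counts cover counting error only.

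The 10 genes and the lists were chosen with earlier results of these data known. By the rule for named genes, the 10 genes, Ins1 and Ins2, up to 4 genes of each list by smallest adjusted p among those past 0.05, and the 5 genes most like Pdx1 were named. Some genes that this rule covers are not reported here. The alternatives were DESeq2 1.42.0 without independent filtering, no normalisation factors, upper-quartile factors, no human ACTA2, no low-count filter, unnamed rows in library sizes, the most abundant row of each gene, 1 library left out, and a replicate block.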

Additional observations from a re-analysis of the deposited data

How the results depend on the processing

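Replicate numbers are shared by the groups, but nothing says that they mark a common day or batch, and same-numbered libraries did not deviate together (correlations of -0.03, -0.01 and -0.03). With the replicate block 7 of the 9 tested factor genes fell and 0 rose, where 3156 of 13363 tested genes fell and 3138 rose. In that setting Mafa passed (log2 fold change -1.56, edgeR adjusted p = 0.0168), and Foxa2 was at -5.75. With 1 library left out, Foxa2 ranged from -10.76 to 0.86, and the smallest Pax6 row, ENSRNOT00000005882, from -0.39 to 0.20. Nkx2-2 passed with upper-quartile factors (adjusted p = 0.0485), with unnamed rows in the library sizes (0.0494), with DESeq2 (0.00904) and without INS-SMA replicate 1 (7.74e-05). Among the 27 tested other endocrine factors 5 rose with the block. Over all genes, the median log2 fold change was 0.13 without normalisation factors and 0.27 with no low-count filter, against 0.03 in the main setting. Adding unnamed rows to the gene they overlap was not run, because those rows carry no coordinates. The cause of these changes was not tested. The SE of 0.93 for Mafa, 1.09 for Nkx2-2 and 2.64 for Foxa2 limits what 3 libraries per group can show for them.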

Other observations

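Of the 10 transcription factor genes, 4 lie on chromosome 3 in the deposited coordinates, namely Neurod1, Pax6, Nkx2-2 and Foxa2, and 972.1 kb separate Nkx2-2 from Foxa2. Of 968 tested genes on that chromosome 25.3% fell, beside 27.0% of all tested genes.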
